A study of Mus musculus with 4 samples.

Results

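Proteasome genes were taken as the protein-coding mouse genes whose symbol begins with Psma, Psmb, Psmc, Psmd or Psme, and 46 of the 24415 rows of the deposited count table met that rule. By role they comprise 31 constitutive subunits, 5 genes of the immunoproteasome and its interferon-linked activator (Psmb8, Psmb9, Psmb10, Psme1 and Psme2), 3 assembly chaperones of the regulatory particle, 2 further activators, 2 tissue-restricted core subunits and 3 other genes that carry the prefix. The constitutive set holds 7 α, 4 structural β and 3 standard catalytic β subunits of the core particle, and 6 ATPase and 11 non-ATPase subunits of the regulatory particle. All 46 passed the filter on low counts, the smallest count of any of them in any library being 98. They lie on 16 chromosomes.

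The libraries were made from total RNA of bone marrow cells selected with microbeads against CD117 (KIT), a surface receptor of hematopoietic stem and progenitor cells (HSPCs). Wild-type mice were compared with mice in which a constitutively active form of HIF-1α, which is the oxygen-sensitive subunit of the transcription factor HIF-1, was induced, with 2 libraries per genotype and a strain background of C57BL/6, 129X1/SvJ throughout. The sources used here do not give the promoter that drives the induced protein, the inducing agent, the time after induction, or the animals' age and sex. They also do not say whether the libraries of a genotype came from separate mice, so the spread behind each p-value may be technical.

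Library totals ran from 22221798 to 27539149 counts. Hif1a itself was at 179 and 168 CPM (counts scaled to library size) in wild-type replicates 1 and 2 and at 155 and 113 CPM in inducible HIF-1α replicates 1 and 2. The sources used here do not say whether the induced transcript is among these counts. Kit, the marker of the bead selection, was at 268 and 242 CPM in wild type and at 347 and 390.4 CPM in inducible HIF-1α. Markers of mature cells were also present and moved with genotype. Summed over 10 B cell genes the level was 549 and 521 CPM in wild type against 16.9 and 6.36 CPM in inducible HIF-1α, and Pax5, which defines the lineage, was at 0 in both of the latter. The inducible HIF-1α pair differed more from each other than the wild-type pair did, with a biological coefficient of variation of 33.4% against 15.1%. In bulk libraries fewer cells of a type and less RNA per cell cannot be told apart.

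The proteasome degrades proteins tagged with ubiquitin. Its core particle is a barrel of α and β rings in which PSMB6, PSMB7 and PSMB5 carry the caspase-like, trypsin-like and chymotrypsin-like cutting sites, and the regulatory particle on its ends binds, unfolds and feeds in substrates through a ring of ATPases. Interferon-γ induces PSMB9, PSMB10 and PSMB8, which take the place of PSMB6, PSMB7 and PSMB5 to form the immunoproteasome, and PSME1 and PSME2, which form the PA28αβ cap. The exchange favours peptides that bind MHC class I, and hematopoietic cells are known for carrying immunoproteasomes without infection.

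Stretches of the promoters of 5 of the 6 catalytic genes are shown. Psmb7, which has no match, is left out, so only genes with a match appear. They are shown because the study induces a DNA-binding factor and because the immune and standard genes of the exchange are known for different control. The sequences are from the RefSeq promoter table of GRCm38.p6 and lie upstream of the start annotated there. The Psmb6 stretch lies just inside the gene as placed by its RefSeq start, 70525324 on chromosome 11. Capitals mark matches, on either strand, to the hypoxia response core (ACGTG or GCGTG), the interferon-γ activated site (TTCNNNGAA) or the antioxidant response core (TGACNNNGC), and in Psmb10 the first run of capitals holds overlapping matches on both strands.
Psmb8, chr17:34197986-34198164, plus strand: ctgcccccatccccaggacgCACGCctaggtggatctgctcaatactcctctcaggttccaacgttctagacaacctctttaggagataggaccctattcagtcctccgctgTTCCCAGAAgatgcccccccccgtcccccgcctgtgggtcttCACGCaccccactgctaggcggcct
Psmb9, chr17:34187382-34187548, minus strand: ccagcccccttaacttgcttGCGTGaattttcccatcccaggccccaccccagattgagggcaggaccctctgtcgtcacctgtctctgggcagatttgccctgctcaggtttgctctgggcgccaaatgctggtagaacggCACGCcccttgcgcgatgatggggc
Psmb10, chr8:105938474-105938528, minus strand: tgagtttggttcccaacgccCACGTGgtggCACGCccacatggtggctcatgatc
Psmb5, chr14:54618014-54618073, minus strand: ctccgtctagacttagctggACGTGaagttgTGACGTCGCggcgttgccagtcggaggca
Psmb6, chr11:70525328-70525356, plus strand: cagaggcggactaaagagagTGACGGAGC

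Promoter entries of 300 bases existed for 39 of the 46 genes, among them all 5 immunoproteasome genes. The hypoxia response core was found in 23 of the 39 (59.0%) and in 46.7% of the 27025 genes with an entry. It was found in 14 of 25 constitutive subunits and in Psmb8, Psmb9, Psmb10 and Psme2, but its letters were not in the window of Psme1. The interferon-γ activated site was found in 2 of the 39, Psmb8 and Psmd2, and in 9.55% of all entries. A core of the interferon-stimulated response element, GAAANNGAA, was found in 6 of the 39 (Psmb3, Psmb4, Psmc2, Psmd4, Psmd9 and Psme1) and in 9.76% of all. CCAAT was found in 16 of the 39 and in 41.1% of all. The antioxidant response core, added after the data had been seen because NRF1, the factor known to raise proteasome genes when degradation fails, binds such elements, was found in 6 of the 39 (Psmb5, Psmb6, Psmc6, Psmd9, Psmd12 and Psme4) and in 14.0% of all. These matches are letters within a window and no binding was measured.

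None of the 46 genes passed the test between genotypes, while constitutive and immune genes were ordered differently within the inducible HIF-1α pair. Constitutive subunits were mostly at their highest in replicate 2 of inducible HIF-1α, and all 5 immunoproteasome genes were at their highest in replicate 1. The 46 genes together took 0.369% and 0.382% of the counts of the wild-type libraries and 0.412% and 0.491% of those of inducible HIF-1α replicates 1 and 2. The 31 constitutive subunits took 0.280%, 0.294%, 0.304% and 0.381% of the counts in the same order. The 5 immunoproteasome genes took 0.0141%, 0.0124%, 0.0232% and 0.0136%. Per 100 counts of constitutive subunits there were 5.01 and 4.21 immunoproteasome counts in wild type, 7.66 in inducible HIF-1α replicate 1 and 3.58 in replicate 2.

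**Figure D1:**
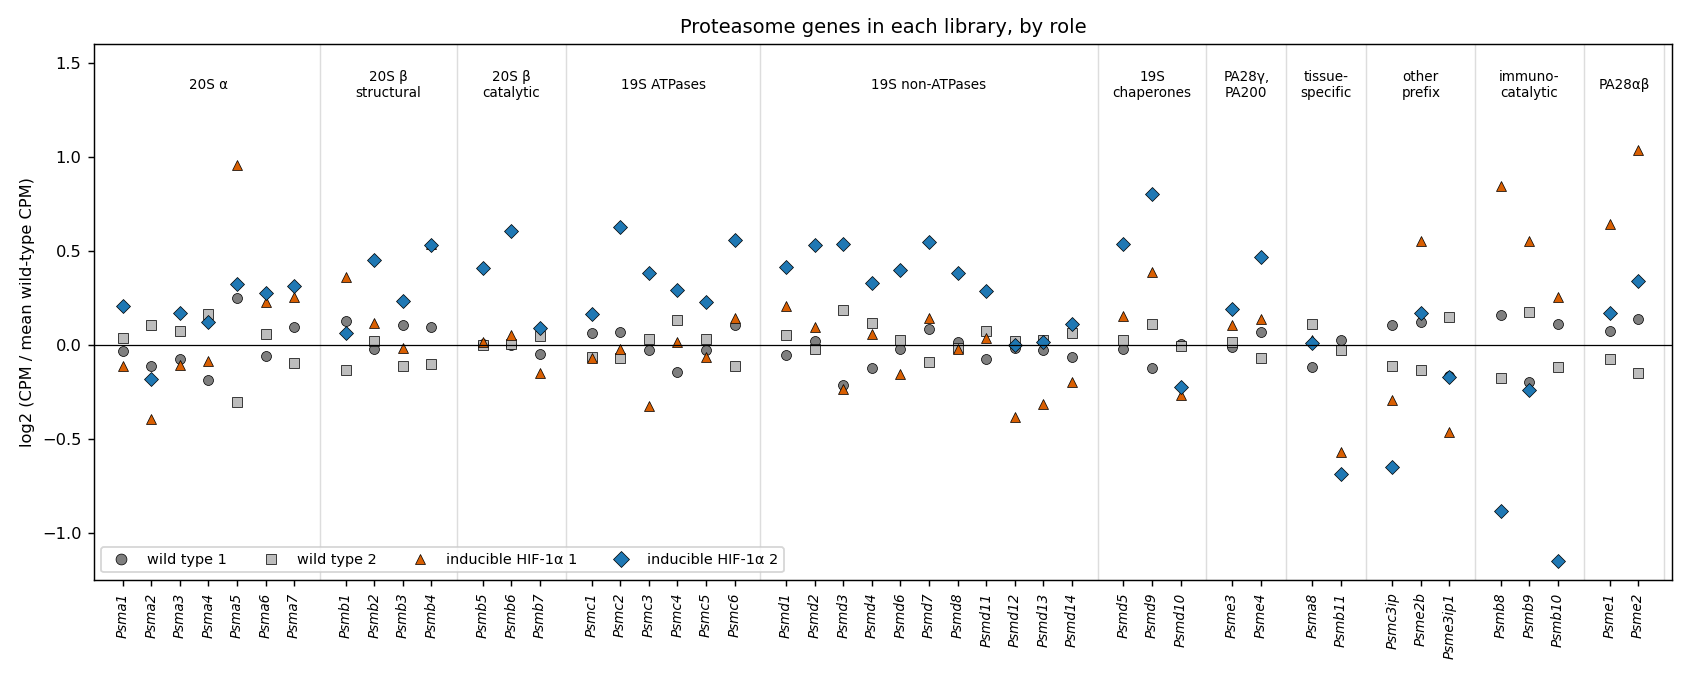
Level of each of the 46 proteasome genes in each library, as the log2 ratio of its CPM to the mean CPM of the 2 wild-type libraries, with genes in columns grouped by role and 1 symbol per library. Most constitutive subunits have their highest symbol in inducible HIF-1α replicate 2 (24 of 31), while all 5 immunoproteasome genes at the right have theirs in replicate 1.

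Genotypes were tested with edgeR's quasi-likelihood F test across 14043 genes, calling those with a Benjamini-Hochberg adjusted p under 0.05. It called 16 genes higher (0.114%) and 141 lower (1.0%) in inducible HIF-1α, and 0 of the 46 proteasome genes in either direction. The smallest adjusted p of a proteasome gene was 0.243, for Psmb4. At an unadjusted p under 0.05 there were 4 of the 46 (Psmb4, Psmb11, Psmd9 and Psme2), against 16.9% of all genes tested. DESeq2 and limma-voom also called 0 of the 46, with 4 each at an unadjusted p under 0.05. The median log2 fold change was 0.20 over the 46 genes, of which 36 were positive, against 0.001 over all genes tested, of which 50.1% were positive.

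The order of the libraries was compared without a test. Both inducible HIF-1α libraries were above both wild-type libraries for 18 of the 46 genes, against 24.6% of all genes tested, and below them for 5 of the 46, against 28.2%. Inducible HIF-1α replicate 2 was above replicate 1 for 34 of the 46 genes, for 28 of 31 constitutive subunits and for 0 of 5 immunoproteasome genes, against 49.3% of all genes tested. In the wild-type pair replicate 2 was above replicate 1 for 19 of 31 constitutive subunits and 1 of 5 immunoproteasome genes.

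The α subunits form the outer rings of the core particle and gate its entry. Psma5 had the largest log2 fold change of the constitutive set, at 53.8 and 36.6 CPM in wild type and 87.8 and 56.6 CPM in inducible HIF-1α replicates 1 and 2 (0.67 ± 0.29, SE, adjusted p = 0.308). It was also the α subunit whose wild-type libraries differed most, and unlike the other 6 it was higher in inducible HIF-1α replicate 1 than in replicate 2. Psma2 had the lowest fold change, with 26.8 and 31.1 CPM in wild type and 22.0 and 25.5 CPM in inducible HIF-1α (-0.28 ± 0.22, adjusted p = 0.552). The other 5 α subunits had log2 fold changes between 0.02 (Psma4) and 0.28 (Psma7). Psma5, Psma6 and Psma7 had both inducible HIF-1α libraries above both wild-type libraries, 3 of 7 against 24.6% of all genes tested. Psma2 had both below, 1 of 7 against 28.2%. Per kilobase of transcript the α subunits ranged from 9.05 CPM for Psma2 to 214 CPM for Psma1, averaged over the 4 libraries. Psma1 was the most abundant of all proteasome genes on that scale, and Psma2 the least abundant constitutive subunit. The rank of Psma2 depends on the transcript length used for it, 2911 bases. Before division by length Psmb5 was lower than Psma2 in every library (13.5 to 17.9 CPM against 22.0 to 31.1 CPM).

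The structural β subunits have no cutting site of their own and hold the inner rings together. Psmb4, the last subunit to join the inner ring, was at 39.7 and 34.6 CPM in wild type and 53.8 and 53.7 CPM in inducible HIF-1α (log2 fold change 0.53 ± 0.20, adjusted p = 0.243). Its groups did not overlap and its inducible HIF-1α libraries were nearly equal. Psmb3 had the smallest log2 fold change of this class, with 111 and 94.99 CPM in wild type and 102 and 121 CPM in inducible HIF-1α (0.11 ± 0.19, adjusted p = 0.809). Psmb1 and Psmb2 lay between them, at 0.22 and 0.29.

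The standard catalytic genes Psmb5 and Psmb6 had like levels in 3 libraries and higher ones in inducible HIF-1α replicate 2, while Psmb7 varied less. Psmb5, the chymotrypsin-like subunit, was at 13.5 CPM in both wild-type libraries, 13.6 CPM in inducible HIF-1α replicate 1 and 17.9 CPM in replicate 2 (log2 fold change 0.22 ± 0.26, adjusted p = 0.696). Psmb6, the caspase-like subunit, was at 17.8 and 17.9 CPM in wild type and 18.5 and 27.1 CPM in inducible HIF-1α (0.36 ± 0.26, adjusted p = 0.530). Psmb7, the trypsin-like subunit, was at 53.3 and 56.8 CPM in wild type and 49.5 and 58.6 CPM in inducible HIF-1α (-0.03 ± 0.20, adjusted p = 0.959), a value whose sign turned positive under upper quartile and total-count scaling. Psmb5 shares its locus with the microRNA gene Mir686 and Psmb7 with Gm13586, and the sources used here do not say whether reads of overlapping genes were separated by strand.

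The ATPases form the ring that unfolds substrates. All 6 were at their highest in inducible HIF-1α replicate 2, at 1.12 to 1.55 times the wild-type mean, while replicate 1 lay at 0.798 to 1.10 times. Psmc6 had the largest log2 fold change, with 149 and 128 CPM in wild type and 153 and 204 CPM in inducible HIF-1α (0.36 ± 0.21, adjusted p = 0.440), and was the only ATPase whose groups did not overlap. Psmc1 had the smallest, with 42.0 and 38.5 CPM in wild type and 38.3 and 45.2 CPM in inducible HIF-1α (0.05 ± 0.20, adjusted p = 0.922). Psmc2 had the largest ratio of replicate 2 to the wild-type mean among the ATPases, at 102 CPM against 64.9 CPM in replicate 1 and 69.0 and 62.9 CPM in wild type.

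The non-ATPase subunits build the base and lid that bind and deubiquitinate substrates. All 11 were higher in inducible HIF-1α replicate 2 than in replicate 1, and 9 had their highest level there. Psmd7, which pairs in the lid with the deubiquitinase PSMD14, was at 165 and 146 CPM in wild type and 171 and 227 CPM in inducible HIF-1α (log2 fold change 0.36 ± 0.21, adjusted p = 0.437). Psmd12, a lid scaffold subunit, had the lowest value, with 106 and 109 CPM in wild type and 82.1 and 107 CPM in inducible HIF-1α (-0.18 ± 0.20, adjusted p = 0.686). Psmd3, another lid scaffold subunit, showed the widest spread of this class within inducible HIF-1α, at 362 and 476 CPM in wild type and 356 and 606 CPM in inducible HIF-1α. Its replicates differed by 1.70 times within inducible HIF-1α, and the wild-type values lay between those of that pair. Psmd1, Psmd2 and Psmd7 were the members of this class whose groups did not overlap, each higher in inducible HIF-1α. That is 3 of 11, near the 24.6% of all genes tested.

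The chaperones PSMD5, PSMD9 and PSMD10 escort the base of the regulatory particle during assembly and leave before it is complete. Psmd9 was at 34.4 and 40.5 CPM in wild type and 49.1 and 65.3 CPM in inducible HIF-1α (log2 fold change 0.61 ± 0.23, adjusted p = 0.248), so the groups did not overlap. Psmd5 also did not overlap, with 90.3 and 93.2 CPM in wild type and 102 and 133 CPM in inducible HIF-1α (0.36 ± 0.20, adjusted p = 0.424). Psmd10, also known as gankyrin, had 8.73 and 8.68 CPM in wild type and 7.24 and 7.45 CPM in inducible HIF-1α (-0.24 ± 0.28, adjusted p = 0.697). The groups of Psmd10 did not overlap either, with both inducible HIF-1α libraries below both wild-type libraries. The 3 chaperones therefore did not share a direction, with 2 separated higher and 1 lower, against 24.6% and 28.2% of all genes tested.

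The activators outside the immune pair had smaller fold changes than that pair. Psme3, which encodes the nuclear PA28γ cap, was at 313 and 319 CPM in wild type and 339 and 359.8 CPM in inducible HIF-1α (log2 fold change 0.15 ± 0.17, adjusted p = 0.708). Psme4, which encodes PA200, a cap linked to histone turnover, was at 220.1 and 199.6 CPM in wild type and 231 and 290.0 CPM in inducible HIF-1α (0.31 ± 0.20, adjusted p = 0.469). In both genes the inducible HIF-1α libraries were above both wild-type libraries, as in 24.6% of all genes tested. The adjusted p missed the threshold in both.

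The tissue-restricted subunits were present at low levels. Psmb11, the catalytic subunit of the thymic epithelium, was at 19.4 and 18.7 CPM in wild type and 12.9 and 11.9 CPM in inducible HIF-1α (log2 fold change -0.63 ± 0.23, adjusted p = 0.248), with both inducible HIF-1α libraries below both wild-type libraries. Its transcript of 4247 bases has 1 exon, and per kilobase its level of 3.70 CPM was the lowest of the 45 genes with a length. The gene lies close to Psmb5 on the same chromosome without overlapping it. Psma8, the testis-specific α subunit, was at 8.06 and 9.46 CPM in wild type and 8.91 and 8.83 CPM in inducible HIF-1α (0.02 ± 0.28, adjusted p = 0.981). Among the other genes with the prefix, Psmc3ip, a recombination factor that is no proteasome subunit, was at 6.20 and 5.31 CPM in wild type and 4.69 and 3.67 CPM in inducible HIF-1α (-0.46 ± 0.35, adjusted p = 0.547). Psme2b, a gene with 1 exon whose transcript is 96.2% identical to that of Psme2, was at 19.3 and 16.2 CPM in wild type and 26.0 and 19.9 CPM in inducible HIF-1α (0.37 ± 0.25, adjusted p = 0.496). Reads can fit either copy, so the split of counts between Psme2 and Psme2b is uncertain. Psme3ip1 was at 48.1 and 59.8 CPM in wild type and 39.2 and 47.9 CPM in inducible HIF-1α.

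**Figure D2:**
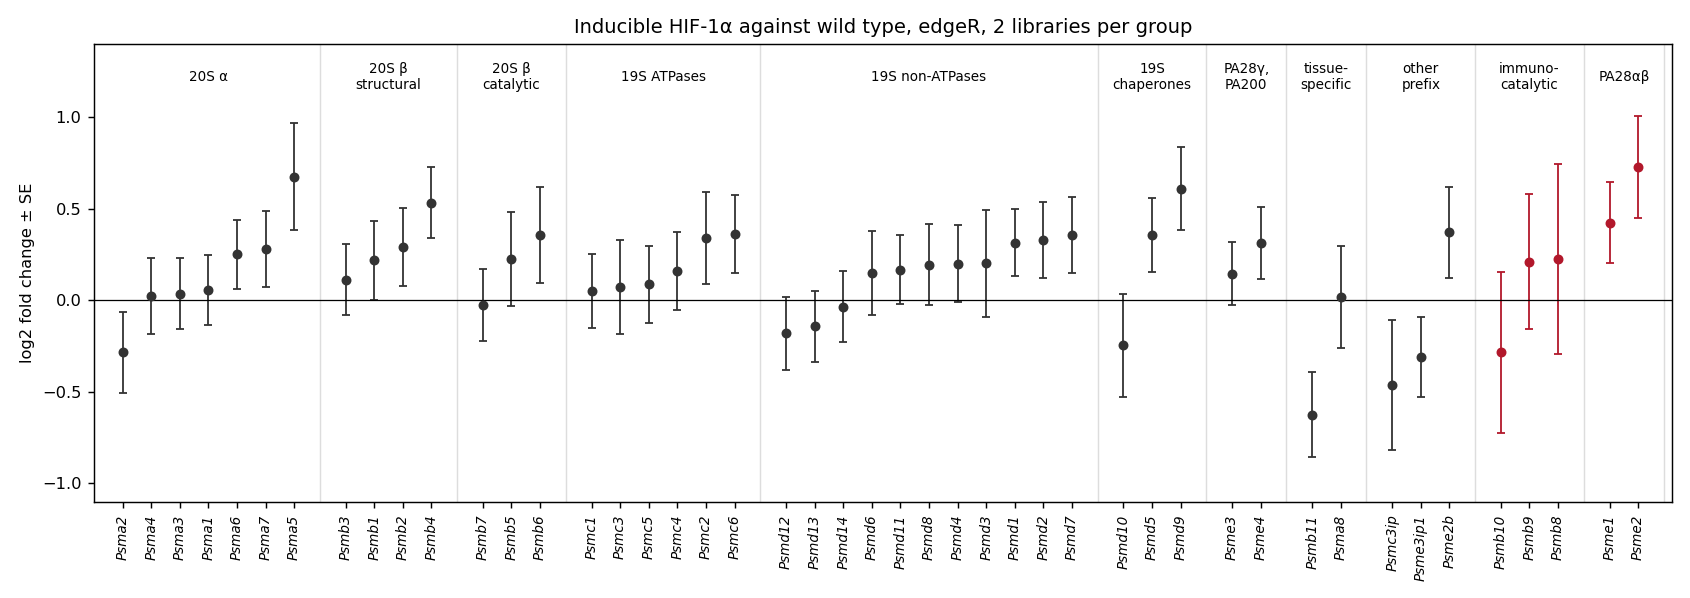
Log2 fold change of each proteasome gene between inducible HIF-1α and wild type with its standard error, from edgeR with 2 libraries per group, ordered within each role, with the 5 immunoproteasome genes in red. Values run from -0.63 (Psmb11) to 0.73 (Psme2), the immune catalytic genes have the longest bars, and no gene passed the adjusted threshold.

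The 3 immune catalytic genes were above both wild-type libraries in inducible HIF-1α replicate 1 and below both in replicate 2. Of all genes tested, 36.5% were above both in replicate 1 and 42.4% were below both in replicate 2. Psmb8 (chromosome 17, 34198195 to 34201454), the immune counterpart of Psmb5, was at 15.9 and 12.6 CPM in wild type, 25.5 CPM in inducible HIF-1α replicate 1 and 7.71 CPM in replicate 2. Its log2 fold change was 0.22 ± 0.52 (adjusted p = 0.865), and its replicates stood at 1.797 and 0.543 times the wild-type mean. Psmb9 (chromosome 17, 34182030 to 34187330), the counterpart of Psmb6 and a neighbour of Psmb8 in the MHC region, was at 6.31 and 8.17 CPM in wild type and 10.6 and 6.14 CPM in inducible HIF-1α (0.21 ± 0.37, adjusted p = 0.814). The value of replicate 2 lay only just under the lower wild-type value. Psmb10 (chromosome 8, 105935728 to 105938392), the counterpart of Psmb7, was at 19.97 and 17.1 CPM in wild type and 22.1 and 8.34 CPM in inducible HIF-1α (-0.28 ± 0.44, adjusted p = 0.785). Here the deviation of replicate 2 was the larger, at 0.450 times the wild-type mean against 1.19 times in replicate 1.

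The PA28αβ genes were higher in both inducible HIF-1α libraries than in both wild-type libraries, an order held by 24.6% of all genes tested. Each was at its highest in replicate 1. Psme1 (chromosome 14, 55578494 to 55581527), which overlaps Emc9, was at 66.4 and 59.9 CPM in wild type and 98.4 and 71.1 CPM in inducible HIF-1α (log2 fold change 0.42 ± 0.22, adjusted p = 0.388). Psme2 (chromosome 14, 55587440 to 55591101) was at 35.9 and 29.5 CPM in wild type and 67.1 and 41.4 CPM in inducible HIF-1α (0.73 ± 0.28, adjusted p = 0.259). The neighbouring pair thus had replicate 2 at 1.12 and 1.27 times the wild-type mean, whereas the catalytic genes had it at 0.450 to 0.848 times. The 5 genes were at their highest in replicate 1 in 5 of 5 cases, an order held by 19.4% of all genes tested, and the constitutive subunits were at their highest in replicate 2 in 24 of 31 cases, an order held by 34.3% of all genes tested.

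The exchange of catalytic subunits was followed as a ratio of counts per kilobase within each library, which no scaling between libraries affects. Psmb8 over Psmb5 was 0.647 (95% exact interval 0.561 to 0.746) and 0.514 (0.434 to 0.609) in wild type, 1.03 (0.907 to 1.18) in inducible HIF-1α replicate 1 and 0.237 (0.201 to 0.280) in replicate 2. These intervals cover counting error only. For Psmb8 over Psmb5, those of the inducible HIF-1α libraries overlapped neither each other nor those of the wild-type libraries. Psmb9 over Psmb6 was 0.209 (0.174 to 0.250) and 0.270 (0.225 to 0.323) in wild type, 0.338 (0.291 to 0.393) in replicate 1 and 0.134 (0.112 to 0.158) in replicate 2. Psmb10 over Psmb7 was 0.331 (0.300 to 0.366) and 0.266 (0.236 to 0.299) in wild type, 0.395 (0.357 to 0.436) in replicate 1 and 0.126 (0.109 to 0.145) in replicate 2. For Psmb9 over Psmb6 the interval of inducible HIF-1α replicate 1 overlapped that of wild-type replicate 2. For Psmb10 over Psmb7 it overlapped that of wild-type replicate 1, and the wild-type intervals did not overlap each other. Between the inducible HIF-1α replicates the 3 ratios differed by 4.35, 2.53 and 3.14 times. Of the summed transcript level of the 6 catalytic genes per kilobase, the immune genes made up 26.2% and 23.7% in wild type, 33.3% in inducible HIF-1α replicate 1 and 13.02% in replicate 2. Averaged by group, the ratio of the 3 immune to the 3 standard genes was 0.333 ± 0.032 in wild type and 0.324 ± 0.246 in inducible HIF-1α (SD, n = 2 each). The means were close and the inducible HIF-1α libraries lay on opposite sides of both wild-type libraries.

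**Figure D3:**
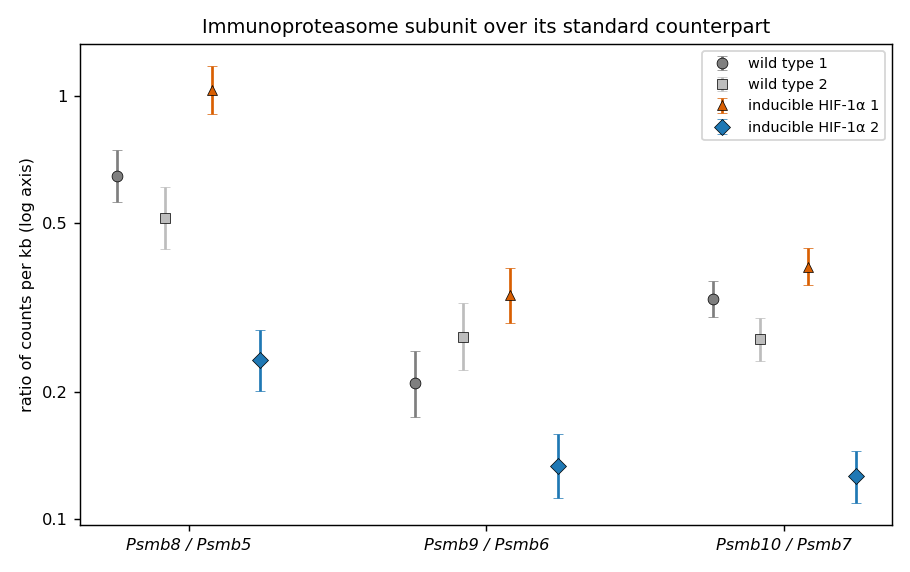
Ratio of counts per kilobase of each immune catalytic gene to its standard counterpart, on a log axis, with 1 symbol per library and exact 95% intervals for counting error. In all 3 pairs inducible HIF-1α replicate 1 is the highest library and replicate 2 the lowest, the widest gap being 1.03 against 0.237 for Psmb8 over Psmb5.

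Because the inducible HIF-1α libraries lay apart, the test was repeated with each left out, the lone library being assumed to vary like the wild-type pair. The inducible HIF-1α pair varied more than that (biological coefficient of variation 33.4% against 15.1%). These calls therefore describe how a single library deviated and do not measure a difference between genotypes. With only replicate 2 kept, 10 of the 46 proteasome genes were called higher, against 12.4% of all genes, and 3 lower, against 19.7%. The 10 were Psmb4, Psmb6, Psmc2, Psmc6, Psmd2, Psmd3, Psmd5, Psmd7, Psmd9 and Psme4, with log2 fold changes from 0.46 (Psme4) to 0.80 (Psmd9, adjusted p = 0.00041). The 3 lower were Psmb8 (-0.89 ± 0.29, adjusted p = 0.0093), Psmb10 (-1.15 ± 0.27, adjusted p = 0.000194) and Psmb11 (-0.69 ± 0.26, adjusted p = 0.0292). With only replicate 1 kept, 5 of the 46 were called higher, against 3.84% of all genes, and 0 lower, against 7.64%. They were Psma5 (0.99 ± 0.19), Psmb4 (0.57 ± 0.20), Psmb8 (0.88 ± 0.24, adjusted p = 0.00387), Psme1 (0.68 ± 0.19) and Psme2 (1.07 ± 0.20, adjusted p = 3.81e-06). Psmb8 therefore deviated in opposite directions in the 2 libraries, and Psmb4 in the same direction in both. With wild-type replicate 1 left out, the median log2 fold change was 0.14 over the constitutive subunits and 0.43 over the immunoproteasome genes. With wild-type replicate 2 left out, these medians were 0.21 and 0.35.

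Medians over the classes followed the same division. The 31 constitutive subunits had a median log2 fold change of 0.19, which was 0.31 with replicate 2 alone and 0.02 with replicate 1 alone. The 5 immunoproteasome genes had a median of 0.22, which was -0.24 with replicate 2 alone and 0.68 with replicate 1 alone. The median of all genes was -0.01 with replicate 2 alone and -0.003 with replicate 1 alone.

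Other genes build, cap or serve the proteasome under different symbols. Of 12 such genes all had a positive log2 fold change, with a median of 0.13, and 0 were called. Psmg2, a chaperone of the α ring, had the smallest p, at 12.95 and 11.1 CPM in wild type and 18.7 and 21.1 CPM in inducible HIF-1α (0.73 ± 0.24, adjusted p = 0.208). Sem1, a small subunit of the regulatory particle, ran against the constitutive order, at 69.6 and 52.7 CPM in wild type, 81.9 CPM in inducible HIF-1α replicate 1 and 44.3 CPM in replicate 2. Psmf1, an inhibitor of the core particle, stood at 0.699 times the wild-type mean in replicate 1 and 1.43 times in replicate 2. Of 13 genes for ubiquitin supply and shuttling, 11 were positive with a median of 0.15 and 0 were called. The shuttle receptor gene Rad23b had the smallest p, at 147 and 144 CPM in wild type and 169.6 and 172 CPM in inducible HIF-1α (0.23 ± 0.17, adjusted p = 0.529).

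The NRF1 pathway raises proteasome genes when degradation fails, and DDI2 is the protease that activates NRF1. The list of 5 genes used for it also holds Nfe2l2, which encodes NRF2, a different factor. Of the 5 genes 4 were tested and 0 were called, with a median log2 fold change of -0.12. Nfe2l2 was at 322 and 333 CPM in wild type and 238 and 303 CPM in inducible HIF-1α (-0.28 ± 0.20, adjusted p = 0.516). Ddi2 was at 67.7 and 72.3 CPM in wild type and 89.7 and 87.3 CPM in inducible HIF-1α (0.34 ± 0.18, adjusted p = 0.388). Nfe2l1, which encodes NRF1, was at 42.9 and 58.6 CPM in wild type and 45.2 and 43.4 CPM in inducible HIF-1α (-0.20 ± 0.22, adjusted p = 0.694).

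Most MHC class I genes had the order of libraries seen in the immune catalytic genes. Of 12 tested 0 were called and their median log2 fold change was 0.18, but 10 of 12 were at their highest in inducible HIF-1α replicate 1, against 19.4% of all genes, and 10 of 12 at their lowest in replicate 2, against 35.1% of all genes. Nlrc5, the transactivator of MHC class I genes, was at 25.1 and 31.5 CPM in wild type, 108 CPM in replicate 1 and 16.4 CPM in replicate 2. Its log2 fold change was 1.96 ± 0.19 with replicate 1 alone and -0.79 ± 0.24 with replicate 2 alone. These libraries thus deviated in opposite directions. Tap1, a peptide transporter subunit whose gene lies beside Psmb9, was at 44.0 and 51.8 CPM in wild type and 97.4 and 42.8 CPM in inducible HIF-1α. B2m, the light chain of MHC class I, was at 392 and 328 CPM in wild type and 751 and 279.7 CPM in inducible HIF-1α. Erap1, which trims peptides, had the smallest p, at 174 and 158 CPM in wild type and 294 and 164 CPM in inducible HIF-1α (0.46 ± 0.29, adjusted p = 0.463). With replicate 1 alone 6 of the 12 were called higher (B2m, Erap1, H2-D1, H2-K1, Nlrc5 and Tap1), against 3.84% of all genes, and 0 lower. With replicate 2 alone 3 of the 12 were called lower (Calr, H2-D1 and Nlrc5), a share near the 19.7% of all genes, and 0 higher. H2-K1 and H2-D1 belong to a family of similar genes, so their counts are uncertain.

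Interferon-γ signalling genes, which lie upstream of the immune subunits, were mostly lower in inducible HIF-1α. Of 9 genes 0 were called, 7 had a negative log2 fold change and the median was -0.14. In replicate 1, 6 of the 9 were below both wild-type libraries, against 41.6% of all genes, and 2 were above both. In replicate 2, 6 were below both, against 42.4% of all genes, and 3 were above both. Ifngr2, a chain of the interferon-γ receptor, had the smallest p and was lower in both inducible HIF-1α libraries, at 37.4 and 36.4 CPM in wild type and 16.8 and 8.98 CPM in inducible HIF-1α (-1.52 ± 0.32, adjusted p = 0.0902). Irf1, a transcription factor that interferon-γ induces, was at 33.2 and 30.6 CPM in wild type and 42.3 and 15.5 CPM in inducible HIF-1α. It had the order of the immune catalytic genes, above wild type in replicate 1 and below it in replicate 2. With replicate 2 alone 4 of the 9 (Ifngr2, Irf1, Irf2 and Irf8) were called lower, against 19.7% of all genes. With replicate 1 alone 1 of the 9 was called higher (Irf9), against 3.84% of all genes, and 1 lower (Ifngr2), against 7.64%.

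**Figure D4:**
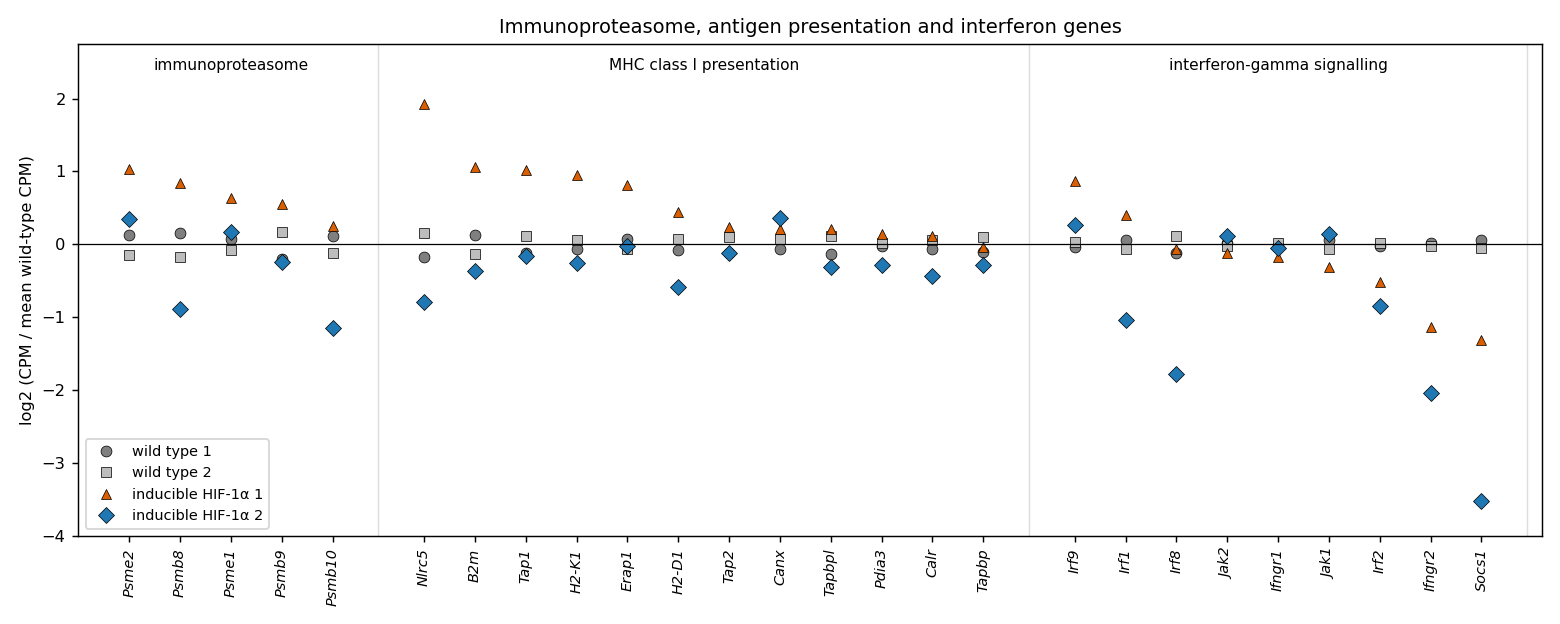
Level of the immunoproteasome, MHC class I presentation and interferon-γ signalling genes in each library, as the log2 ratio of CPM to the wild-type mean, ordered within each list by inducible HIF-1α replicate 1. Nlrc5 has the highest symbol for replicate 1, and for Psmb8, Psmb10, Nlrc5 and Irf1 the inducible HIF-1α libraries lie on opposite sides of wild type.

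Most lists of cell type markers summed to less than wild type in both inducible HIF-1α libraries, the erythroid and HSPC lists being the exceptions. Summed erythroid markers (9 genes, of which Tfrc was called higher) were at 2482 and 2628 CPM in wild type, 3542 CPM in inducible HIF-1α replicate 1 and 6202 CPM in replicate 2, so the sum was at its highest in the library where constitutive subunits were. All 9 were higher in replicate 2 than in replicate 1, but Slc4a1, the anion exchanger of the red cell membrane, and Alas2, the erythroid heme synthesis enzyme, had both inducible HIF-1α libraries below both wild-type libraries. Summed neutrophil markers (9 genes, 3 called lower) were at 14413 and 13340 CPM in wild type and 9115 and 4009 CPM in inducible HIF-1α. Summed macrophage markers (11 genes, 8 called lower) were at 472 and 501 CPM in wild type and 180.4 and 88.6 CPM in inducible HIF-1α. All 11 were below both wild-type libraries in both inducible HIF-1α libraries, and 3 of the 11 were higher in replicate 2 than in replicate 1, the gap between the sums lying mostly in Vcam1 (126 and 56.2 CPM) and Csf1r (40.3 and 21.0 CPM).

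Dendritic and MHC class II markers (8 genes tested, 4 called lower) summed to 549 and 643 CPM in wild type and to 179.7 and 87.9 CPM in inducible HIF-1α. T and NK markers (8 genes, 2 called lower) summed to 133 and 147 CPM in wild type and to 73.8 and 43.3 CPM in inducible HIF-1α. These sums and that of B cell markers were below both wild-type libraries in both inducible HIF-1α libraries. Megakaryocyte markers (7 genes, 2 called lower) summed to 272 and 309 CPM in wild type and to 115 and 74.8 CPM in inducible HIF-1α. HSPC markers (8 genes, 0 called) summed to 1038 and 996 CPM in wild type and to 1209 and 1045 CPM in inducible HIF-1α. By gene, 8 of 8 were above both wild-type libraries in replicate 1, against 36.5% of all genes, and 6 of 8 were below both in replicate 2, against 42.4%, Kit and Myb being the exceptions. The HSPC list was thus the marker list whose members mostly had the order of the immune catalytic genes. The part of these cell types in the levels of proteasome genes was not tested.

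**Figure D5:**
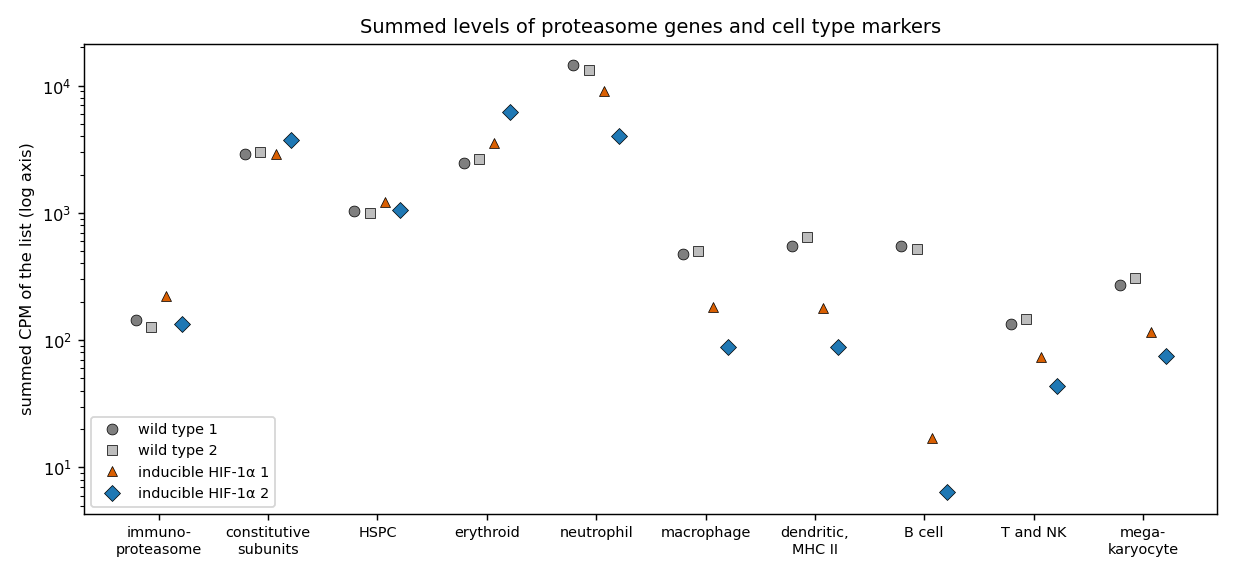
Summed CPM of the immunoproteasome genes, of the constitutive subunits and of each list of cell type markers in each library, on a log axis. Immunoproteasome genes are highest in inducible HIF-1α replicate 1 (223.8 CPM), while constitutive subunits (3762 CPM) and erythroid markers (6202 CPM) are highest in replicate 2, and the B cell sum is 549 CPM in wild-type replicate 1 and 6.36 CPM in inducible HIF-1α replicate 2.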

How the data were processed

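Raw counts per gene, as deposited by the authors, were read for 4 libraries (2 per genotype). CASAVA 1.8, bcl2fastq, TopHat and edgeR appear in the submitters' processing notes, with mm10 as the build; the sources used here do not give the counting step, its annotation or its strand setting. Symbols and positions came from RefSeq (GRCm38.p6) through the Entrez identifiers. The 81 rows without a match held 0.911% to 1.45% of the counts and stayed in the tests. edgeR 4.0.16 in R 4.3.3 was used with filterByExpr (minimum count 10), TMM scaling and a quasi-likelihood F test with Benjamini-Hochberg adjustment over 14043 genes. SEs are the log2 fold change over the square root of F. CPM uses TMM-scaled library sizes, and the limit for a count of 0 (3 counts) was 0.109 to 0.135 CPM before that scaling. Replicates were compared before averaging, and the chi-square per gene was 23.3 for the wild-type pair and 118 for the inducible HIF-1α pair, so no library copied another. The script was tested on simulated data. Levels per kilobase use the exonic length of the principal transcript. Members and lists were chosen with earlier results of these data known. Named with full statistics are the 5 immunoproteasome genes, their standard counterparts, and in each other class the members with the smallest p and the largest and smallest fold change; of each companion list, the gene with the smallest p. All other genes named were chosen after their values were seen. Alternatives were DESeq2 1.42.0, limma 3.58.1 (voom), other scalings and filters, a replicate block and leaving out each library.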

Additional observations from a re-analysis of the deposited data

How the results depend on the processing

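The count of proteasome genes called was 0 under every scaling, filter, tool and block tried, with the smallest adjusted p of a member between 0.156 (replicate block) and 0.264 (at least 1 CPM in all 4 libraries), and ranged from 0 to 13 when each library was left out. The 157 genes called over all genes became 97 under total-count scaling, 953 with DESeq2, 747 without a filter and 78 with at least 1 CPM in all 4 libraries. They ranged from 0 to 4669 when each library was left out: 2 were called without the first wild-type library, 0 without the second (703 at an unadjusted p under 0.05), 4669 without inducible HIF-1α replicate 1 and 1666 without the other inducible HIF-1α library. With the replicate number as a block 381 were called; same-numbered deviations correlated at only 0.077, so the numbers were not taken as pairs. Of 336 values of 24 named members under the alternatives, 311 kept direction and side of the threshold, 13 kept direction and newly passed it, and 12 changed sign, of which 1 (Psmb8 without inducible HIF-1α replicate 1) also passed it. The sign changes were in Psma8 (log2 fold change -0.00503 with at least 1 CPM in all 4 libraries), Psmb7 (0.0129 under upper quartile and 0.0476 under total-count scaling) and Psmb8 (-0.026 with limma-voom). On leaving out each library the log2 fold change ranged from -0.0755 to 0.136 for Psma8, -0.116 to 0.088 for Psmb7, -0.886 to 0.879 for Psmb8, -0.237 to 0.591 for Psmb9, -1.153 to 0.291 for Psmb10 and -0.0377 to 0.163 for Psmc1. Their cause was not tested. Every member had at least 98 counts in every library.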
